A study of Mus musculus with 2 samples.

Results

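A set of 7 miRNA genes, with known roles in steroid-producing cells or with a host gene of cyclic nucleotide signalling, was measured in the adrenal glands of newborn mice. They were Mir21a, Mir132, Mir212, Mir202, Mir320, Mir455 and Mir139, 7 of 1973 measured miRNA genes. They were picked by name for those roles, with earlier results of these data known, and the rule itself uses no measured value. MicroRNA sequencing, restricted to RNA below 30 nucleotides, was done on adrenals of the strain B6NCrl at postnatal day 0. The series holds 2 libraries of a single group, called pup 2 and pup 1, and each was made from both adrenals of its pup. The pups were untreated as far as the labels say, carried no stated engineered allele, came from the same pregnancy, and had no recorded sex. Per the labels the libraries came from separate pups, yet their donor identifier is identical, and if it stood for a single animal the spread between the libraries would be technical.

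The adrenal cortex makes steroid hormones from cholesterol under 2 main signals. ACTH (adrenocorticotropic hormone) acts through cyclic AMP (cAMP) and the transcription factor CREB, and angiotensin II drives aldosterone output in the outer zone. A miRNA is cut from a hairpin precursor into short mature arms, and bases 2 to 8 of an arm, the seed, pair with the transcripts that it represses. Mir132 and Mir212 are induced by CREB, and in rat adrenals both respond to ACTH. Mir21a is raised by angiotensin II in human adrenocortical cells. Mir455 acts, in rodent steroid-producing cells, on the receptor that takes up cholesterol from high-density lipoprotein. Mir202 is enriched in gonads, and Mir320 was studied in the granulosa cells of the mouse ovary. Mir139 lies in Pde2a, whose product degrades cAMP when cyclic GMP stimulates it and is abundant in the aldosterone-producing zone.

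The mature sequences below, taken from RefSeq on GRCm38.p6, show which of these miRNAs could share targets and whether their reads could be confused. Capitals mark the seed. Mature entries matched 6 of the 7 genes and gave 12 arms, and Mir320 was not among them. The files count reads per hairpin gene, so the values that follow do not separate the 5p from the 3p arm.
miR-132-3p: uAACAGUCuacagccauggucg
miR-212-3p: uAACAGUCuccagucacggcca
miR-21a-5p: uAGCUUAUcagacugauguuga
miR-21c: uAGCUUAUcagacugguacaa
miR-139-5p: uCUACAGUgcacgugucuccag
miR-455-5p: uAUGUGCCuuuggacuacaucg
miR-455-3p: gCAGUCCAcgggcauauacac
miR-202-5p: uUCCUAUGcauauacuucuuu
miR-202-3p: aGAGGUAUagcgcaugggaaga
let-7j: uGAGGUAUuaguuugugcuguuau
let-7g-5p: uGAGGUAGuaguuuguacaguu

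Among the 12 arms, the shared seed of miR-132-3p and miR-212-3p, AACAGUC, was the only seed that occurred in more than 1 of the 6 genes. No other mature entry of the RefSeq table held it. The 3p arms of the pair were identical at 17 of 22 positions and differed at A10C, C14U, U17C, U20C and G22A, counted from the 5′ end of miR-132-3p, with its base written before that of miR-212-3p. miR-202-3p carried a seed that differs by its last base from the let-7 seed GAGGUAG, a G8U change counted from the 5′ end of let-7g-5p. It shared its exact seed, GAGGUAU, with let-7j, and the Mir7j gene had 123 counts in pup 2 and 24 in pup 1. miR-21a-5p shared its seed with miR-21c, whose gene Mir21c had 0 counts in both libraries. The seed of miR-455-5p was shared with miR-5129-3p, and the Mir5129 gene had 4 counts in pup 2 and 2 in pup 1. None of the 12 arms occurred whole in another hairpin of the table. The closest other hairpin differed by 4 bases for miR-21a-5p, by 5 for the 3p arms of Mir132 and Mir212, which are closest to each other, and by 6 to 8 for the other arms.

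The library of pup 2 held 3327743 counts on the strand of the miRNA genes and that of pup 1 held 1131762, so pup 2 was 2.94 times as deep. Levels are counts scaled to a total of 1000000 (CPM), and 1 count was worth 0.301 CPM in pup 2 but 0.884 CPM in the shallower pup 1. Reads that mapped to several loci, 32.2% of all reads in pup 2 and 34.9% in pup 1, were not assigned to genes. Of the marker lists, the neuroendocrine one (4 genes, led by Mir375) summed to 33410 CPM in pup 2, against 39764 CPM in pup 1. Most of that sum was Mir375, with 30415 and 37586 CPM in pups 2 and 1. Of the 4 genes, 2 were higher and 2 lower in pup 2. The 5 brain miRNA genes (Mir9-2, Mir9-3 and the Mir124a genes) had 0 counts in both, although they are genes with several copies whose reads may be among those not assigned. The hepatocyte miRNA Mir122 had 4081 and 2979 CPM in pups 2 and 1. No miRNA marker that defines cortex cells was available, so the tissue label was not checked against the cortex.

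All 7 genes were detected, with at least 10 CPM in both libraries, as were 13.9% of the 1973 genes. Their levels spanned 391-fold, from Mir21a to Mir212, and together they took 3.12% of the counts in pup 2 and 3.28% in pup 1. Mir21a and Mir139 supplied 89.8% of that sum. The median of the 7 mean levels was 897 CPM, beside 275 CPM over the 284 genes whose mean reached 10 CPM. None of the 7 had a count on the opposite strand in either library.

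**Figure D1:**
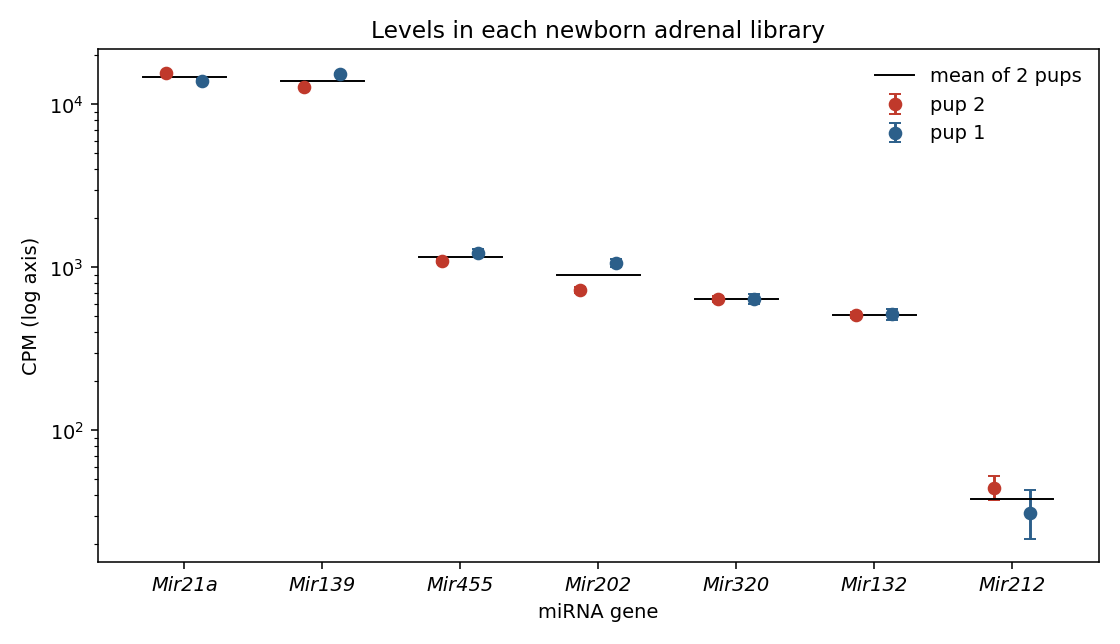
CPM of each gene (log axis) in pup 2 (red, left) and pup 1 (blue, right), with exact 95% counting intervals as bars and the mean of both pups as a black line. Mir21a and Mir139 lie between 12710 and 15497 CPM, 4 genes lie between 510 and 1230 CPM, and Mir212 lies at 44.5 and 30.9 CPM.

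Mir21a (ENSMUSG00000065455.1), the miRNA raised by angiotensin II in human adrenocortical cells, was the most abundant of the 7 by its mean. It had 51570 counts or 15497 CPM in pup 2 (exact 95% interval 15363 to 15631) and 15845 counts or 14000 CPM in pup 1 (13783 to 14220). Its mean was 14749 ± 1058 CPM (SD, n = 2), and it ranked 18 in pup 2 and 20 in pup 1 among all genes. All intervals given here cover counting error only. Reads amplified by PCR are not independent molecules, so the intervals may be too narrow even for that. On mm10 its hairpin lies at chr11:86584067-86584158 on the minus strand, within an untranslated part of an exon of Vmp1, a gene of autophagosome formation. The related genes Mir21b and Mir21c had no count in either library, and a limit of 3 counts per library puts their level below 0.902 CPM in pup 2 and below 2.65 CPM in pup 1.

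Mir139 (ENSMUSG00000065446.1), the intronic miRNA of Pde2a, stood at the same height. It had 42297 counts or 12710 CPM in pup 2 (12590 to 12832) and 17283 counts or 15271 CPM in pup 1 (15044 to 15500), a mean of 13991 ± 1811 CPM (SD, n = 2). The order of Mir139 and Mir21a was opposite in the pups. Mir139 over Mir21a was 0.820 in pup 2 (0.810 to 0.831) and 1.09 in pup 1 (1.07 to 1.11), so the ranges of the genes overlapped over the libraries and their means could not be ordered. The hairpin lies at chr7:101475376-101475443 on the plus strand, in an intron of all 10 Pde2a transcripts that span it and of the overlapping gene Gm45837. The next gene, Mir455, was far below both: Mir139 exceeded it 11.6-fold in pup 2 and 12.4-fold in pup 1.

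Mir132 (ENSMUSG00000065537.1) and Mir212 (ENSMUSG00000065590.1), the pair induced by CREB, differed widely in level although they come from the same locus. Mir132 had 1698 counts or 510 CPM in pup 2 (486 to 535) and 584 counts or 516 CPM in pup 1 (475 to 560). Mir212 had 148 counts or 44.5 CPM in pup 2 (37.6 to 52.2) and 35 counts or 30.9 CPM in pup 1 (21.5 to 43.0). Mir132 was thus higher than Mir212 in both libraries, with no overlap. Mir132 ranked 107 in pup 2 and 106 in pup 1, and Mir212 ranked 222 and 230.

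Within a library the ratio of Mir212 to Mir132 does not depend on depth or scaling. It was 0.0872 in pup 2 (0.0732 to 0.103) and 0.0599 in pup 1 (0.0413 to 0.0843), a mean of 0.0735 ± 0.0193 (SD, n = 2), and the counting intervals of the pups overlapped. Put the other way, Mir132 was 11.5 times as high as Mir212 in pup 2 and 16.7 times in pup 1. The hairpins lie on chromosome 11 on the plus strand, Mir212 at chr11:75173388-75173478 and Mir132 at chr11:75173682-75173747, with 203 bases between them. Both lie in the same intron of the noncoding host 1700016P03Rik. The hairpins are printed with their annotated arms in capitals, to show the arms behind these gene counts.
Mir212: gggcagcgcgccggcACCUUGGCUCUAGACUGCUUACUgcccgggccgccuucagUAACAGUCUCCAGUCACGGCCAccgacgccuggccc
Mir132: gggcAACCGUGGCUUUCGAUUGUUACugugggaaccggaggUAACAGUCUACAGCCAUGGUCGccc

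The hairpin of Mir212 had a GC content of 69.2%, the highest among the 5 hairpins that RefSeq gave, and that of Mir132 had 57.6%. The lowest was that of Mir202 with 43.1%.

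**Figure D2:**
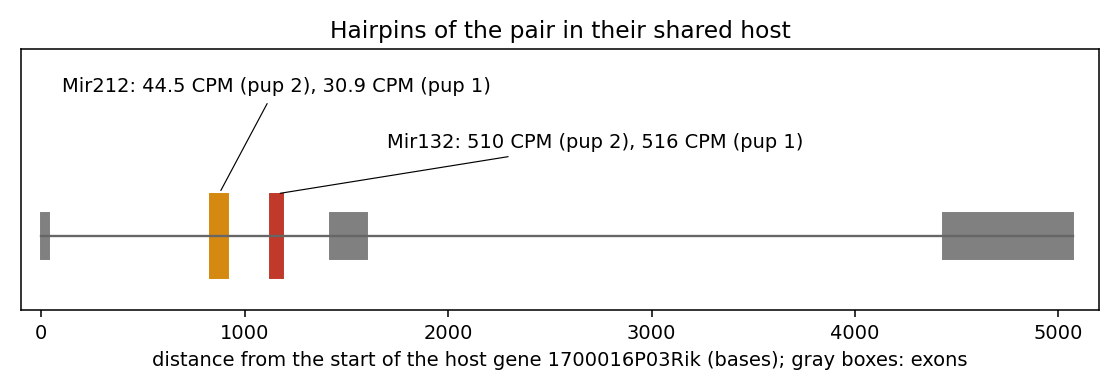
Map of the Mir212 (orange) and Mir132 (red) hairpins along their host gene, by distance in bases from the start of the host, with exons in gray. Both hairpins lie between the host's leading exon and its next one, and Mir132 had 510 and 516 CPM where Mir212 had 44.5 and 30.9 CPM, in pups 2 and 1.

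Mir455 (ENSMUSG00000070102.1), which with Mir125a acts on the cholesterol receptor Scarb1 in rodent steroid-producing cells, followed in mean level. It had 3646 counts or 1096 CPM in pup 2 (1060 to 1132) and 1392 counts or 1230 CPM in pup 1 (1166 to 1296), a mean of 1163 ± 94.97 CPM (SD, n = 2). Its range did not overlap that of any other of the 7 genes. The hairpin lies at chr4:63256851-63256932 on the plus strand, in an intron of the collagen gene Col27a1. Mir125a, its partner on Scarb1, had 9276 CPM in pup 2 and 12503 CPM in pup 1, above Mir455 in both.

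Mir202 (ENSMUSG00000065502.1), known as a gonad miRNA that rises in the fetal mouse testis, was present in the newborn adrenals in both libraries. It had 2424 counts or 728 CPM in pup 2 (700 to 758) and 1205 counts or 1065 CPM in pup 1 (1005 to 1127). The pups did not agree closely, and the mean of 897 ± 238 CPM (SD, n = 2) had an SD of 26.5% of its size. Mir7j, the gene of let-7j with the same seed, was lower than Mir202 in both libraries, at 37.0 and 21.2 CPM in pups 2 and 1. The hairpin lies at chr7:139957689-139957760 on the minus strand, in an exon of the long noncoding RNA Gm2044. It is printed with both annotated arms in capitals, because the 3p arm carries the let-7-like seed.
Mir202: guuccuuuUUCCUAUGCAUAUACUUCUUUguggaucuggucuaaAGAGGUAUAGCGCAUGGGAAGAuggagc

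Other gonad-linked miRNAs were set beside Mir202. Of the 13 measured genes listed from the X-linked cluster known from testis, 9 had 0 counts in both pups. The 4 others summed to 8 counts or 2.40 CPM in pup 2 and 4 counts or 3.53 CPM in pup 1. Mir202 was 303-fold above that sum in pup 2 and 301-fold above it in pup 1, folds that rest on those 8 and 4 counts. They hold for the listed genes only. The list was not complete, and Mir201 and Mir547, left out of it, were higher. Mir201 had 10.2 and 8.84 CPM and Mir547 had 14.4 and 10.6 CPM in pups 2 and 1. The 9 genes at 0 were Mir743, Mir743b, Mir470, Mir880, Mir883a, Mir883b, Mir463, Mir465 and Mir878. Reads that fit several loci may be among those not assigned, so these zeros do not show absence. The list of miRNAs linked to gonadotropins or gonads had 8 measured genes, of which 5 were detected, beside 13.9% of the 1973 genes. Its leaders, Mir140 with 1905 and 1678 CPM, Mir425 with 1798 and 1543 CPM, and Mir224 with 393 and 304 CPM in pups 2 and 1, are found in many tissues.

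Mir320 (ENSMUSG00000065528.1) was studied in mouse granulosa cells, where it represses E2f1 and the steroidogenic factor gene Nr5a1. It had 2129 counts or 640 CPM in pup 2 (613 to 668) and 727 counts or 642 CPM in pup 1 (597 to 691), a mean of 641 ± 1.83 CPM (SD, n = 2). That SD was 0.285% of the mean, the smallest of the 7. The counting intervals are much wider, so such closeness of 2 values is not a measure of stability. Its hairpin lies at chr14:70443510-70443591 on the plus strand, in no annotated gene and 63 bases from the start of Polr3d, which runs the opposite way. Between Mir202 above it and Mir132 below it, Mir320 overlapped neither in range, and it exceeded Mir132 by 1.25-fold in pup 2 and 1.24-fold in pup 1.

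**Figure D3:**
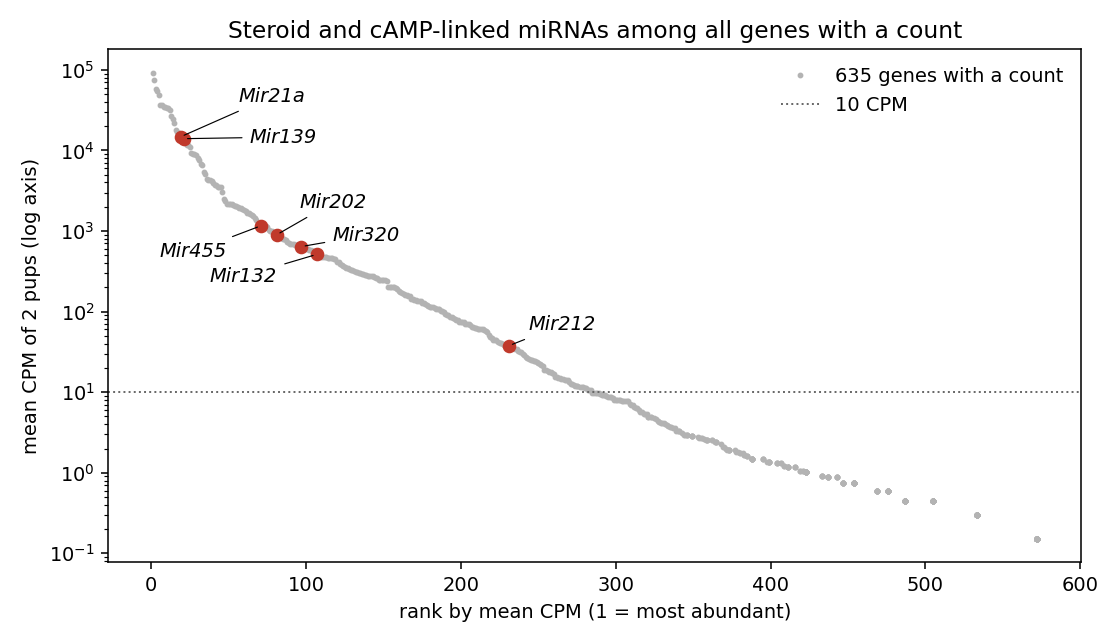
Mean CPM (log axis) against rank for the 635 genes with a count (gray), with the 7 steroid and cAMP-linked genes in red and 10 CPM as a dotted line. Mir21a and Mir139 rank 19 and 21, Mir455, Mir202, Mir320 and Mir132 rank 71 to 107, and Mir212 ranks 231.

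In order of mean level the genes ran Mir21a, Mir139, Mir455, Mir202, Mir320, Mir132 and Mir212. Only the leading pair overlapped in its ranges over the 2 libraries. Mir455 was 1.504-fold above Mir202 in pup 2 and 1.16-fold above it in pup 1, and Mir202 was 1.14-fold above Mir320 in pup 2 and 1.66-fold above it in pup 1. With 2 libraries, a gap between ranges is a weak statement about order.

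The pups were then compared to see which of these genes differed between littermates. With a single library for each pup no test was possible, and the difference has no replicate check. Log2 ratios of pup 2 over pup 1 were taken with 1 CPM added to both, and all 7 genes passed the filter of a mean of at least 10 CPM. None of the 7 reached a 2-fold difference in either direction, where 15 of 284 genes did, or 5.28%, with 3.52% higher and 1.76% lower in pup 2. A count of 0 among 7 genes shows nothing particular to them beside so low a share. Their median log2 ratio was -0.02, beside 0.08 over all 284 genes, whose quartiles were -0.22 and 0.36.

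With library totals as the scale, Mir202 had the largest difference of the 7 and was lower in pup 2, with 728 CPM against 1065 CPM in pup 1. The ratio was 0.684 (95% counting interval 0.638 to 0.734) and the log2 ratio -0.55. Among the 284 genes, 67 had a log2 ratio at least as far from 0, or 23.6%, so a difference of this size was not rare among them. These genes include some with far fewer counts than Mir202, whose ratios vary more by counting alone. The share may therefore overstate how common such a difference is at the level of Mir202. In bulk tissue, fewer cells of a type and less RNA per cell cannot be told apart.

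Mir139 was also lower in pup 2, at a ratio of 0.832 (0.818 to 0.847), and so was Mir455 at 0.891 (0.837 to 0.948). Their log2 ratios were -0.26 and -0.17, and 56.0% and 71.1% of the 284 genes were at least as far from 0. Mir21a was higher in pup 2 at a ratio of 1.11 (1.09 to 1.13), a log2 ratio of 0.15. For these 3 genes and Mir202 the interval left out 1 with library totals as the scale. For Mir21a, Mir139 and Mir202 it also did so under the TMM and DESeq2 scalings described below, whereas for Mir455 it included 1 under TMM (0.901 to 1.02).

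Mir320 and Mir132 were level between the pups within counting error. Their ratios were 0.996 (0.915 to 1.08) and 0.989 (0.8996 to 1.09). Mir212 had the highest ratio, 1.44, but its interval from 0.989 to 2.14 included 1. That interval left out 1 under TMM (1.06 to 2.31) and under DESeq2 (1.01 to 2.19), so whether Mir212, with 148 and 35 counts in pups 2 and 1, differed beyond counting error depends on the scaling. The 2 genes of the CREB pair had log2 ratios of 0.51 for Mir212 and -0.02 for Mir132, and their ratio to each other overlapped between the pups as given above.

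**Figure D4:**
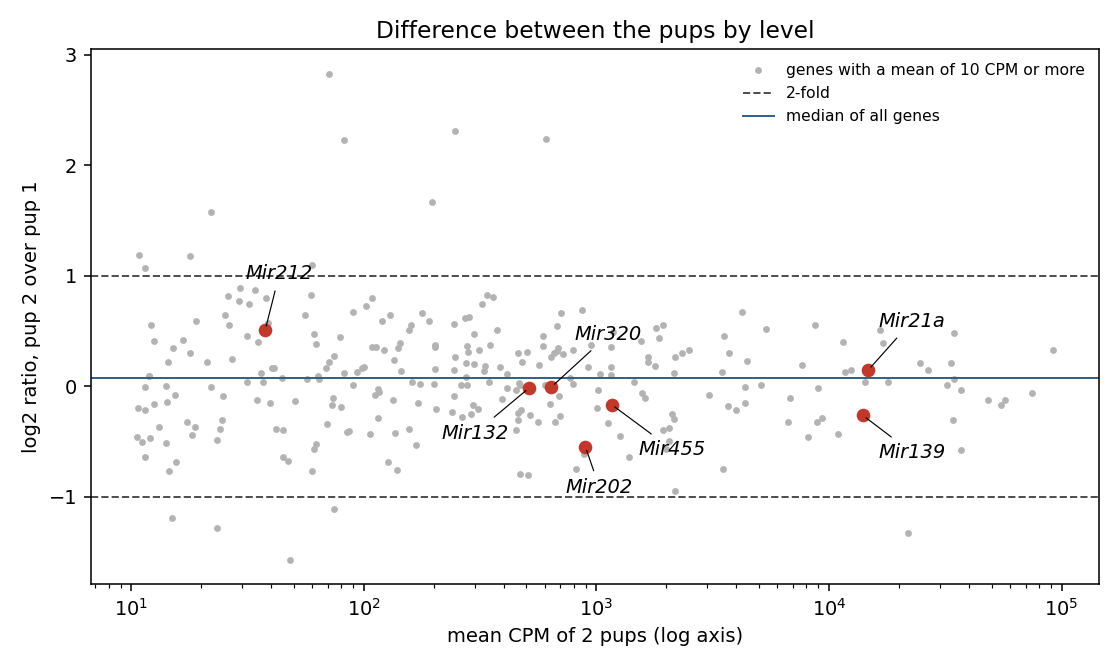
Log2 ratio of pup 2 over pup 1 against mean CPM (log axis) for the 284 genes that reached a mean of 10 CPM (gray), with the 7 genes in red, the median of all genes as a blue line and 2-fold as dashed lines. The 7 genes lie between -0.55 for Mir202 and 0.51 for Mir212, and 15 gray points lie at or beyond the dashed lines.

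The signs of the small differences depend on scaling. TMM scaling moved the median log2 ratio of all genes by 0.10, from which it follows that every gene moved up by about that much. Relative to the median of all genes the members kept their places, with Mir202 at -0.62, Mir139 at -0.34, Mir455 at -0.24, Mir132 at -0.09, Mir320 at -0.08, Mir21a at 0.07 and Mir212 at 0.43. Mir202, Mir139 and Mir455 were lower in pup 2 and Mir21a and Mir212 higher under the library total, TMM and DESeq2 size factors. Mir320 and Mir132 turned from just below 0 to just above it under TMM and under DESeq2. The largest difference of the 7 was then that of Mir212, with 0.61 under TMM and 0.54 under DESeq2, beside -0.44 and -0.51 for Mir202.

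**Figure D5:**
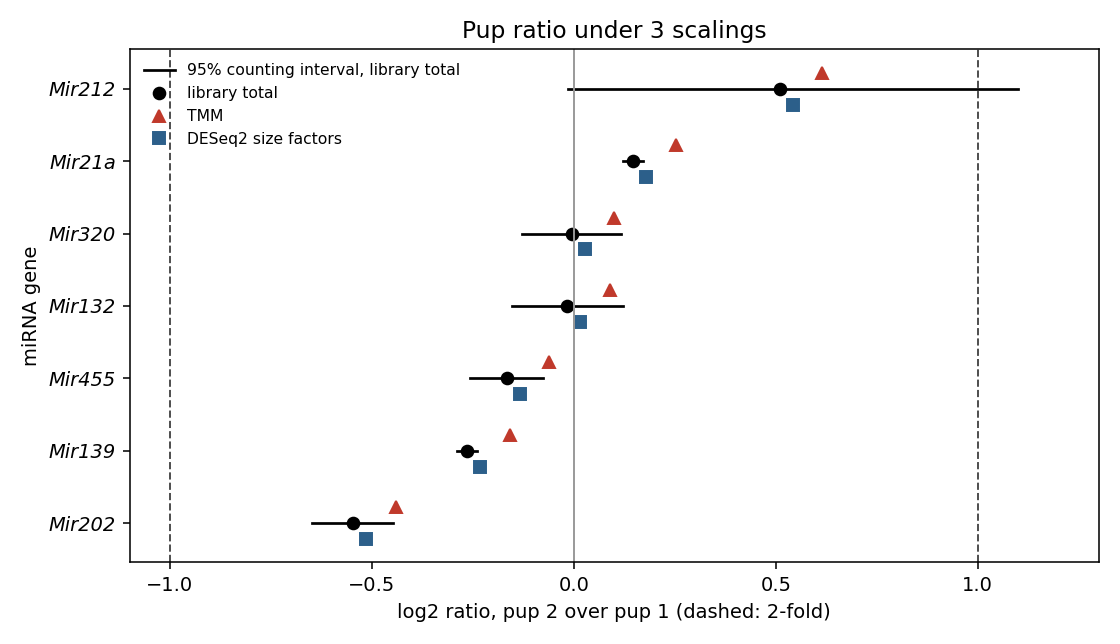
Log2 ratio of pup 2 over pup 1 for each gene under 3 scalings, library total (black circle), TMM (red triangle) and DESeq2 size factors (blue square), with the 95% counting interval under the library total as a black line and 2-fold as dashed lines. Values run from -0.55 for Mir202 under the library total to 0.61 for Mir212 under TMM, and only the interval of Mir212 crosses a 2-fold line.

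Marker miRNAs of other tissues differed between the libraries to unlike degrees, and their part in the differences above was not tested. The sum of the epithelial list (5 genes, 3 detected) was 597 CPM in pup 2, against 214 CPM in pup 1. The skeletal muscle list summed to 412 and 82.2 CPM in pups 2 and 1, almost all of it Mir206, while Mir1a-1, Mir133a-1 and Mir133a-2 were at 0 in both. Those at 0 are genes with several copies, whose reads may be among those not assigned, so their zeros do not show absence. The endothelial Mir126a, the most abundant gene of the libraries, had 102288 and 81621 CPM. The kidney list (5 genes, 4 detected) summed to 352 and 293 CPM. Of the 4 detected, 3 were higher in pup 2. Mir215 was lower, with 23.7 and 72.5 CPM in pups 2 and 1, as was the gene not detected. The erythroid list summed to 337 and 339 CPM, mostly Mir451a with 263 and 261 CPM. Mir144 was higher in pup 2, with 38.5 and 20.3 CPM, and Mir486 lower, with 36.1 and 58.3 CPM. The myeloid Mir223 had 883 and 704 CPM. For Mir126a and Mir223, 47.9% and 47.2% of the 284 genes had a log2 ratio at least as far from 0.

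Other miRNAs known from steroid-producing cells gave a frame for these levels. The list of miRNAs reported to respond in rat adrenals to treatment with ACTH or another hormone, beyond Mir132 and Mir212, had 14 measured genes. All of them were detected, beside 13.9% of the 1973 genes. The leaders were Mir122 with 4081 and 2979 CPM, which is also the hepatocyte marker, Mir214 with 2979 and 3146 CPM, and Mir503 with 557 and 448 CPM in pups 2 and 1. The median mean level was 313 CPM, so Mir132 at 513 CPM stood above the middle of this list and Mir212 at 37.7 CPM below each of its 14 genes. The list was not complete, and Mir466b-2 and Mir466b-3, outside it, had 0 counts in both libraries. Some genes of the list are copies of the same miRNA, as are the Mir466b genes, and their reads may be among those not assigned. The median of the list may therefore be understated, and the zeros of the Mir466b genes do not show absence. Against 5.28% of all genes, 1 of the 14 was past 2-fold. That gene was the epithelial Mir200b, higher in pup 2 with 136 CPM against 28.3 CPM in pup 1, and 7 genes were higher and 7 lower.

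The list of miRNAs studied at genes of steroid synthesis or cholesterol uptake had 9 measured genes. Of these, 8 were detected, beside 13.9% of the 1973 genes. Its leaders were Mir23b with 51662 and 58140 CPM, Mir23a with 36584 and 37455 CPM, and Mir10b with 35221 and 33671 CPM in pups 2 and 1. None of the 8 that reached a mean of 10 CPM was past 2-fold, with 4 higher and 4 lower. Mir21a and Mir139 lay below Mir10b and above Mir125a, the next gene of the list, which had 9276 and 12503 CPM.

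For each of the 7 genes, the 2 genes nearest in level were those with the smallest distance in log2 CPM over the 2 libraries. With 2 points each, this measures level more than pattern. Mir127 was nearest to both Mir21a, at a distance of 0.10, and Mir139, at 0.22, with 14465 CPM in pup 2 and 14064 CPM in pup 1. Mir202 lay nearest to Mirlet7c-2, at 0.06, which had 700.5 and 1074 CPM, and next to Mir672, with 608 and 1021 CPM in pups 2 and 1. Mir455 was nearest to Mir674 at 0.14 and Mir320 to Mir210 at 0.11. Mir132 was nearest to Mir467e at 0.17, and Mir212 to Mir325 at 0.03. The other near genes were Mir143 for Mir21a, Mir130a for Mir139, Mir542 for Mir455, Mir485 for Mir320, Mir540 for Mir132 and Mir26a-2 for Mir212. Mirlet7c-2 and Mir26a-2 belong to miRNAs with several gene copies, whose reads may be among those not assigned. Their values may therefore lie below the level of the mature miRNA.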

How the data were processed

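Both libraries of newborn adrenal were used, grouped from the labels that name the pups. The tables that the authors deposited hold raw counts of reads for each miRNA gene, in a column ignoring strand, another for the gene's strand and another for the opposite strand. Per the notes deposited beside the tables, the reads were placed on mm10 with GENCODE M4. Of the aligner, version and trimming nothing is given in the sources used. The same-strand counts were divided by their gene total and scaled to 1000000 (CPM), leaving out rows that name no gene, which held 47.3% of reads in pup 2 and 49.6% in pup 1. Symbols, positions and hosts came from GENCODE M21, which is on the same assembly, and 1894 of 1973 rows matched. The 79 others held 0 counts. Intervals are exact Poisson for CPM and exact conditional for ratios of counts, at 95%. edgeR 4.0.16 gave TMM factors and DESeq2 1.42.0 its size factors. Python 3.11.15 with scipy 1.17.1 did the rest. The ratio and its interval were tried on simulated Poisson counts of known depth. Such counts hold no PCR duplicates and no spread between animals, so this checks the calculation only. Named genes were the 7 members, the 3 most abundant of each list, list genes at 0, genes sharing a seed and the 2 nearest in level. Mir125a, Mir200b, Mir675, Mir21b, let-7g, Mir466b-2, Mir466b-3, Mir201 and Mir547 were added after their values were seen. The members and lists were chosen with earlier results of these data known. Alternatives were the unstranded column, TMM, DESeq2, a prior of 0.25 or 5 CPM, other denominators, no filter, and leaving out each pup.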

Additional observations from a re-analysis of the deposited data

How the results depend on the processing

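No member passed 2-fold under any of the 6 alternatives tried for that count (unstranded column, TMM, DESeq2, priors of 0.25 and 5 CPM, no filter). The count over all genes was 15, was 11 to 15 under the alternatives that keep the filter, and was 85 without the filter, which admits genes of a few counts. TMM gave log2 ratios of 0.25 for Mir21a, -0.44 for Mir202, -0.061 for Mir455 and -0.16 for Mir139, and DESeq2 gave 0.18 for Mir21a and -0.23 for Mir139, each outside its counting interval by the construction of the scaling. With all reads as the denominator, mean levels were 7613 for Mir21a, 7198 for Mir139, 599 for Mir455, 460.3 for Mir202, 330.5 for Mir320, 265 for Mir132 and 19.5 for Mir212 on a scale of 1000000 reads. Without Mir126a in the total, Mir21a had 16254, Mir455 1280, Mir320 706 and Mir132 565 CPM. With the unstranded column, Mir320 had 621 and Mir132 497 CPM. Leaving out pup 1 or pup 2 gave the other pup's value, so levels ranged from 14000 to 15497 for Mir21a, 12710 to 15271 for Mir139, 1096 to 1230 for Mir455, 728 to 1065 for Mir202, 640 to 642 for Mir320, 510 to 516 for Mir132 and 30.9 to 44.5 for Mir212, and the ratio of Mir212 to Mir132 from 0.0599 to 0.0872. No paired analysis was possible because the series has a single group. Depth limits Mir212 most, and arms of a hairpin cannot be separated.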

Other observations

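The list of miRNAs studied in adrenocortical tumours had 8 measured genes, 6 of them detected, beside 13.9% of the 1973 genes. It was led by Mir335, which lies in the imprinted gene Mest, with 36000 CPM in pup 2 and 31202 CPM in pup 1, then Mir483, in the growth factor gene Igf2, with 794 and 648 CPM, and the hypoxia-linked Mir210 with 598 and 669 CPM. Of these 8, 1 was past 2-fold, beside 5.28% of all genes. It was Mir675, cut from H19, with 53 counts or 15.9 CPM in pup 2 and 8 counts or 7.07 CPM in pup 1, so it reached the mean of 10 CPM only through pup 2. With a prior of 5 CPM it was 1.73-fold higher in pup 2 and no longer past 2-fold.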
